A study of Mus musculus with 2 samples.

Results

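Cells with high levels of S100a8 and S100a9 were examined in a Drop-seq study of the newborn mouse lung. Drop-seq pairs single cells with barcoded beads in droplets and counts unique molecular identifiers (UMIs), each of which marks 1 captured mRNA molecule. The lungs came from wild-type female C57BL/6J mice at postnatal day 1, with 1 mouse in each of 2 batches, and no genotype, treatment or age was compared. The lung was dissociated with enzymes, strained and treated to lyse red blood cells.

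A cell was kept when at most 10% of its UMIs were mitochondrial, when it carried at least 10 UMIs of S100a8 and S100a9 together and at least 50 such UMIs per 10000, and when it carried fewer than 3 UMIs of the complement genes C1qa, C1qb and C1qc. These limits kept 150 of 8003 cells. In Batch 1 they kept 31 of 2388 cells, a share of 1.30% (exact 95% binomial interval 0.884 to 1.84%). In Batch 2 they kept 119 of 5615 cells, a share of 2.12% (1.76 to 2.53%). The intervals covered counting error only. The cells were compared with other leukocytes, defined as the other cells with at least 2 UMIs over Tyrobp, Fcer1g, Laptm5, Ptprc and Spi1 (120 cells in Batch 1 and 380 in Batch 2). The S100a8/S100a9-high cells made up 20.5% (14.4 to 27.9%) of all leukocytes in Batch 1 and 23.8% (20.2 to 27.8%) in Batch 2. Every high cell was counted as a leukocyte here, although 2 in Batch 1 and 5 in Batch 2 held fewer than 2 UMIs of those 5 genes. No barcode was shared between the batches.

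The cells were chosen by their UMIs of S100a8, S100a9, the C1q genes and the mitochondrial genes, so the levels of these are a description. The kept cells held a median of 236.0 UMIs of the pair per 10000 in Batch 1 (range 69.7 to 1622) and 833.9 in Batch 2 (range 52.2 to 2111). The 4 and 11 cells nearest the limits on the inside had medians of 13 and 11 UMIs and of 89.3 and 72.2 per 10000. The 9 and 28 cells nearest on the outside had medians of 7 UMIs in both batches, or 57.6 and 42.0 per 10000. The pair was also found at a low level elsewhere. At least 1 UMI was found in 6.35% of the 2237 remaining cells of Batch 1 and 17.5% of the 5116 remaining cells of Batch 2, at median depths of 1379 and 2018 UMIs, but the pooled level there was 0.419 and 0.664 per 10000.

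Neutrophils are short-lived phagocytes made in the bone marrow, and in the newborn also in the liver. As they mature they fill primary, then specific, then gelatinase granules with antimicrobial proteins and proteases, and the mRNA of each granule class is made at its own stage, so that circulating cells hold granule protein but little of the early mRNA. Late in this sequence they switch on the chemokine receptor Cxcr2 and the cytokine Il1b. S100a8 and S100a9 form calprotectin, the most abundant cytosolic protein of neutrophils, but classical monocytes make both as well. Stefins are small inhibitors of lysosomal cysteine proteases, and the mouse carries a family of stefin A genes.

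Checked against neutrophil markers outside the rule, the cells were not of 1 kind. The 10 markers Csf3r, Retnlg, Ly6g, Cxcr2, Mmp8, Mmp9, Ltf, Lcn2, Camp and Ngp were counted in each cell beside the 5 monocyte markers Ccr2, Ly6c2, F13a1, Ms4a6c and Plac8. This division was chosen after the values were seen and carries no test. More neutrophil than monocyte marker UMIs were found in 8 cells of Batch 1 and 93 of Batch 2, called neutrophil-marker cells here. More monocyte marker UMIs were found in 21 cells of Batch 1 and 24 of Batch 2, called monocyte-marker cells, and 4 cells held equal numbers. The neutrophil-marker cells were thus 25.8% (11.9 to 44.6%) of the high cells in Batch 1 but 78.2% (69.6 to 85.2%) in Batch 2. Because the label fitted only part of the cells, they are named below by their high S100a8 and S100a9. Ly6g, the antigen by which mouse neutrophils are usually sorted, was nearly absent, with no UMI in Batch 1 and UMIs in 2 of the 119 cells of Batch 2.

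The balance of the calprotectin subunits differed between both kinds of cell. In the neutrophil-marker cells S100a9 made up a median of 52.6% of the S100a8 and S100a9 UMIs in Batch 1 (range 43.8 to 62.8%) and 55.6% in Batch 2 (range 40.4 to 85.0%). In the monocyte-marker cells the median was 13.6% in Batch 1 (range 0 to 51.9%) and 0.980% in Batch 2 (range 0 to 62.5%). The rule used the sum of both genes and not their ratio. S100a9 reached at least the UMI number of S100a8 in 78 of 93 neutrophil-marker cells of Batch 2 and in 2 of 24 monocyte-marker cells. The ranges overlapped, and 12 of the 24 monocyte-marker cells of Batch 2 held no S100a9 UMI.

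**Figure D1:**
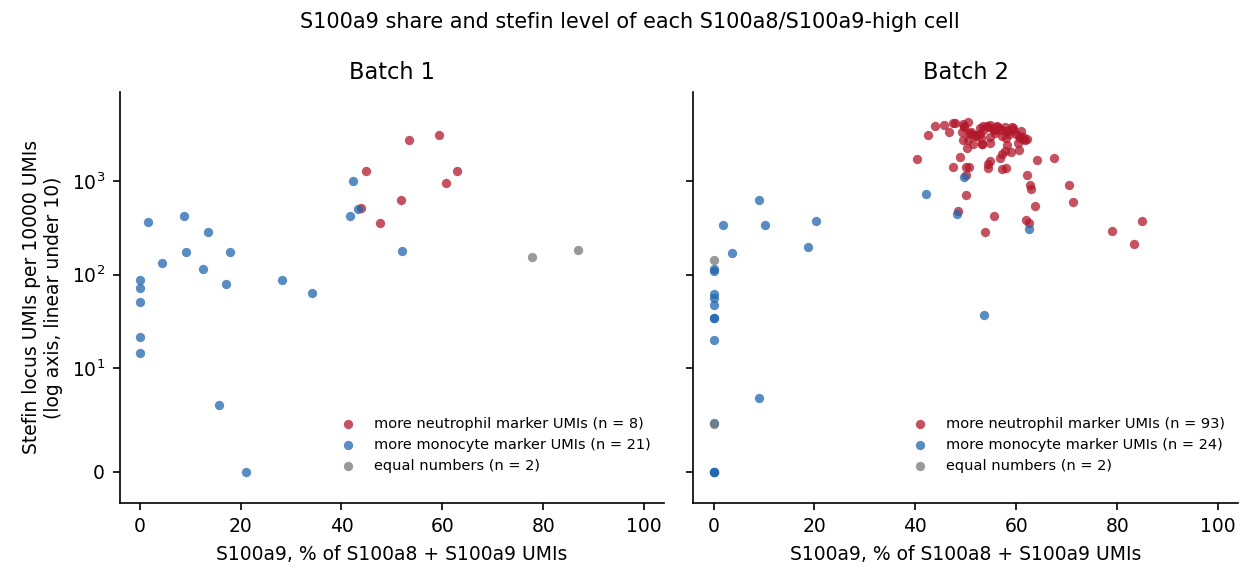
Each point is a single S100a8/S100a9-high cell of Batch 1 (left) or Batch 2 (right), with the S100a9 share of its S100a8 and S100a9 UMIs on the x axis in percent and its stefin locus UMIs per 10000 on the y axis (log axis, linear under 10). Cells with more neutrophil marker UMIs (red) lie at S100a9 shares of 40.4% and above with high stefin levels, while cells with more monocyte marker UMIs (blue) reach down to 0 on both axes.

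Genes that the results turn on are shown by the 250 bases before their RefSeq transcription start (GRCm38.p6), the stretch in which promoter motifs of granulocyte genes are usually sought. S100a8 and S100a9 define the cells, Stfa1 is the stefin gene of the highest level and Stfa2 is another stefin gene. Retnlg is a late neutrophil gene and Ltf a specific granule gene. Capitals mark matches, on either strand, to TTNNGCAA, a short form of the C/EBP site, and to GAGGAAG, a core of PU.1 sites. No match to either motif overlapped a match to the other here.
S100a8, chr3:90668821-90669070 (plus strand): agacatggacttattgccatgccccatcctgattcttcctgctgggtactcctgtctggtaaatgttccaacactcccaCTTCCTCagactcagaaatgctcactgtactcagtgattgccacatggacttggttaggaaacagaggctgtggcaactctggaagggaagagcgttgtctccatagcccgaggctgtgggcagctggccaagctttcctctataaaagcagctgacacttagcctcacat
S100a9, chr3:90695722-90695971 (minus strand): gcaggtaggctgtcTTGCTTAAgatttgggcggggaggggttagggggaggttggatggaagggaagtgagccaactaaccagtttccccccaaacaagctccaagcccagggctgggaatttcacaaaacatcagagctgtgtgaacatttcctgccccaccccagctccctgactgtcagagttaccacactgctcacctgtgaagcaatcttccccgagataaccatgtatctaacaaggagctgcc
Stfa1, chr16:36276898-36277147 (plus strand): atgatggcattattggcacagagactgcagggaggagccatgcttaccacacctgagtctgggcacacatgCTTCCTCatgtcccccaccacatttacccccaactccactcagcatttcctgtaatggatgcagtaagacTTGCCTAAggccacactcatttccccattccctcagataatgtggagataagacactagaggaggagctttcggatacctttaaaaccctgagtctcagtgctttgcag
Stfa2, chr16:36408364-36408613 (minus strand): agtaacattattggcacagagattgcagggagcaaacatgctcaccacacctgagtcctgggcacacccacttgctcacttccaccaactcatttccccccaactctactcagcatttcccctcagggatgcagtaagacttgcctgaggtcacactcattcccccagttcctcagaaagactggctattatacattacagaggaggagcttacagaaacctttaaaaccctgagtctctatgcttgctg
Retnlg, chr16:48872358-48872607 (plus strand): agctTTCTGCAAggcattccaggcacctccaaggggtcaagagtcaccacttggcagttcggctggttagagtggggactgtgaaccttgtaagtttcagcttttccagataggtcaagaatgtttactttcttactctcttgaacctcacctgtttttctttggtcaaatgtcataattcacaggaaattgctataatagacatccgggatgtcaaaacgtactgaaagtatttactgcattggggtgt
Ltf, chr9:111019042-111019291 (plus strand): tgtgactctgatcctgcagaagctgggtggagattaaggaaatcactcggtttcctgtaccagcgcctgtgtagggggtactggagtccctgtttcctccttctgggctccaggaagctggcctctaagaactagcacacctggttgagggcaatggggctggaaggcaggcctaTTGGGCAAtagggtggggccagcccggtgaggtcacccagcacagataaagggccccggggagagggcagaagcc
The motifs were sought in 16 genes picked from the lists and the stefin locus. The other members were not searched, so the counts do not describe the lists as a whole. TTNNGCAA was present in these stretches of 7 of the 16 picked genes (Lcn2, Ltf, Mmp8, Ngp, Retnlg, S100a9 and Stfa1), and in 9.56% of all 32851 promoters. GAGGAAG was present in 5 of the 16 (Csf3r, Lcn2, Mmp8, S100a8 and Stfa1), and in 10.6% of all promoters. In S100a9 the match began 236 bases before the start, in S100a8 171 bases, in Retnlg 246 bases and in Ltf 75 bases. The upstream stretches of Stfa1, Stfa2, Stfa3 and Stfa2l1 were 80.2 to 89.4% identical over 6 pairs, beside 40.8 to 50.2% over the 66 pairs of the other genes, so the 4 stefin stretches are copies of each other.

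The stefin locus carried a large part of the mRNA. It spans 335.4 kb at chr16:36119946-36455392 (GRCm38) with 12 annotated genes in GENCODE, 10 of them protein coding, with the pseudogene Gm4758 and the antisense gene Gm15845. The 11 stefin genes in the files made up 5.11% of all UMIs of the high cells in Batch 1 and 22.4% in Batch 2. In other leukocytes they made up 0.0851% and 0.0715%, and in the remaining cells 0.00559% and 0.0131%. The other leukocytes of Batch 2 included 3 cells that met the S100a8 and S100a9 limits but held at least 3 C1q UMIs. Pooled over those cells the stefin locus held 390.9 UMIs per 10000. All 11 stefin genes were higher in the high cells than in other leukocytes in a pseudobulk comparison over both batches. Gm5416 and Gm4758, with 2 and 3 UMIs in all other leukocytes, passed the filter on low counts through the high cells. The count of 11 is thus partly fixed by that filter, and close copies may share reads, so these are not separate results. In that comparison (edgeR's quasi-likelihood test on UMI sums, with the batch as a block) 450 of 9114 tested genes passed an adjusted p of 0.05, a background of 4.94%, of which 243 were higher (2.67%) and 207 lower (2.27%). The groups were formed from the S100a8 and S100a9 levels of the same cells, and each batch was 1 mouse, whose overall difference the block takes up. The test has 2 residual degrees of freedom per gene from the high cells, other leukocytes and remaining cells. Its p-values follow the normal curve at the fitted log2 value and SE. The variance was thus in effect shared across genes, and very small p-values arose although only 2 mice were used. Its p-values therefore do not measure the spread between mice. Without the block 24 genes passed, 19 higher and 5 lower, and DESeq2 called 148, of which 113 (76.4%) were higher beside 54.0% of the edgeR calls.

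Stfa1 stood at 12256 UMIs per 1000000 (CPM) in Batch 1 and 52143 in Batch 2, beside 163.0 and 181.2 in other leukocytes (log2 fold change 7.50, SE 0.39, edgeR adjusted p = 3.24e-80). Its CPM in Batch 2 was the highest of any gene, above S100a9 at 46463 and S100a8 at 41596. BC100530 reached 10572 and 48412 CPM, beside 113.2 and 153.9 (log2 7.78, SE 0.39), and Stfa2 3719 and 21439 CPM, beside 13.6 and 66.0 (log2 8.49, SE 0.43). The direction was the same in both batches, with larger differences in Batch 2. Of the 15 genes with the highest mean CPM in the high cells, 7 were stefin genes (Stfa1, BC100530, BC117090, Stfa2l1, Gm5483, Stfa2 and 2010005H15Rik), 2 were the rule's own genes and the rest were mt-Rnr2, Malat1, Actb, Tmsb4x and the haemoglobin genes Hba-a1 and Hba-a2. Hba-a1 did not pass the test against other leukocytes (10589 and 1656 CPM beside 9166 and 2263, log2 0.04, SE 0.28, edgeR adjusted p = 0.97), and it was found in 100% and 86.7% of the remaining cells.

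Some stefin genes resemble each other closely, which makes their single values uncertain. Identity was counted over the whole alignment, gaps included. By this measure the coding sequences of the 10 protein-coding genes were 56.5 to 96.9% identical over 45 pairs. Stfa1 reached at most 74.4%, with BC100530, but its coding sequence has 387 bases beside 294. The gaps lower that value, so it does not show that Stfa1 is free of shared reads. The pair with the highest value is shown, with the 9 differing bases of 294 in capitals (GENCODE transcripts, start to stop codon).
2010005H15Rik: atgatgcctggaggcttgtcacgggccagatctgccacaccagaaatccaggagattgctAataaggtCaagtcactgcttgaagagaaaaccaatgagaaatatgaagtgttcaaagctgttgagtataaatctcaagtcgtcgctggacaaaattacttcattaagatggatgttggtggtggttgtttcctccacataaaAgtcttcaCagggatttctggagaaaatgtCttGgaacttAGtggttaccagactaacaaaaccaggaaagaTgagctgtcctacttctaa
Gm5483: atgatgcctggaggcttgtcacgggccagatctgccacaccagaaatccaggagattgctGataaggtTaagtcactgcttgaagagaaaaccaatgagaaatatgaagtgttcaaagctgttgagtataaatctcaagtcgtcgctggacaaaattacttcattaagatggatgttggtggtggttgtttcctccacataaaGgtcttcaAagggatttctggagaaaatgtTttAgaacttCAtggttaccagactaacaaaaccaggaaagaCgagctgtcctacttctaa
Reads from such close copies could be placed on either gene, since 1 alignment was reported for each read, so the locus is best read as a sum. How many reads were misplaced was not tested, and the transcript ends that Drop-seq reads were not compared. 2010005H15Rik stood at 3468 and 17290 CPM and Gm5483 at 4619 and 22626 CPM. The antisense gene Gm15845 overlaps BC100530 on the other strand, so reads of either may be counted for the other where strand was not used, and it held 333.5 and 708.3 CPM, beside 0 and 1.76 in other leukocytes. The stefin B gene Cstb, at another locus, was lower in the high cells, with 183.4 and 128.2 CPM beside 448.3 and 416.9 (log2 -1.36, SE 0.37, edgeR adjusted p = 0.00875), a call that was lost in 8 of 10 alternative settings.

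The stefin level also differed within the high cells. The neutrophil-marker cells held a median of 1115 stefin UMIs per 10000 in Batch 1 (range 358.4 to 3154) and 2880 in Batch 2 (range 211.1 to 4264). The monocyte-marker cells held 114.0 (range 0 to 1007) and 85.2 (range 0 to 1108). Even so, 18 of 21 and 19 of 24 monocyte-marker cells carried at least 3 stefin UMIs, so both kinds of cell used the locus at unequal levels.

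**Figure D2:**
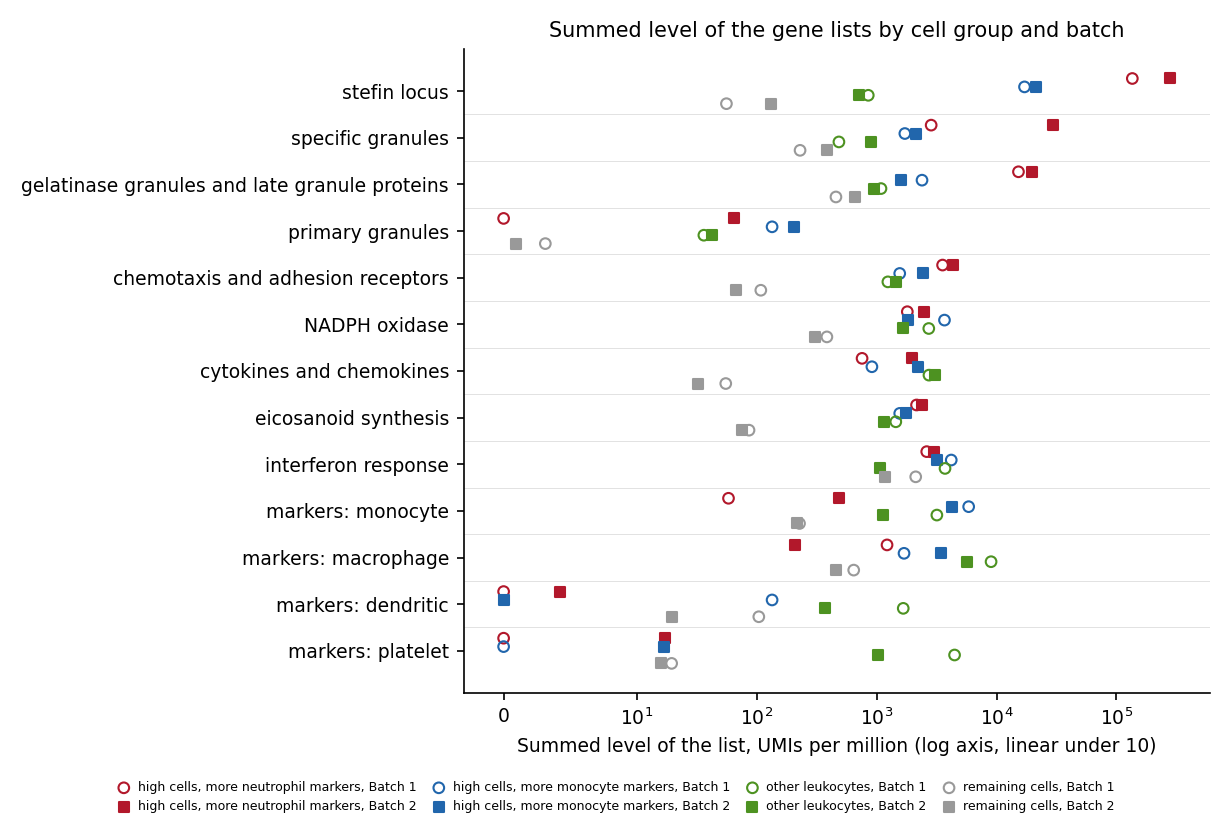
The x axis gives the summed level of each gene list in UMIs per 1000000 (CPM, log axis, linear under 10), with open circles for Batch 1, filled squares for Batch 2 and a colour for each group of cells. The stefin locus reaches 277764 CPM in the neutrophil-marker cells of Batch 2 and 851.4 and 715.1 in other leukocytes, while the primary granule list stays at or below 202.8 in every group.

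Genes of the specific granules, which neutrophils fill at the myelocyte stage, were higher in the high cells. Of the 12 genes in the files 10 passed the filter on low counts, and these 10 rose, with a median log2 fold change of 5.08, beside -0.21 over all tested genes. Members with few UMIs in other leukocytes, such as Ngp, Camp, Cd177, Cebpe and Itgb2l, passed that filter through the high cells, so the count and the median are partly fixed by it, here and in the lists below. Ngp, a cathelicidin-like granule protein, stood at 216.8 CPM in Batch 1 and 6243 in Batch 2, beside 0 and 16.7 in other leukocytes (log2 8.81, SE 0.53, edgeR adjusted p = 1.49e-58). Camp, the precursor of an antimicrobial peptide, stood at 33.4 and 8213 CPM, beside 4.53 and 25.5. Lcn2, which binds bacterial siderophores, stood at 333.5 and 3488 CPM, beside 40.8 and 16.7 (log2 6.66, SE 0.45). These levels were far lower in Batch 1 than in Batch 2, where the neutrophil-marker cells were also a larger share. Itgb2l had no UMI in the high cells of Batch 1 and 161.9 CPM in Batch 2, so that Batch 1 alone gave the opposite direction (0 beside 18.1 CPM). Ltf, the iron-binding lactoferrin, was left out by the filter on low counts, with 0 UMIs in Batch 1 and 1498 CPM in Batch 2, beside 4.53 and 0.880.

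The level of Cd177, a surface glycoprotein of neutrophil subsets, rested on 43 UMIs in the high cells and 2 in other leukocytes, a ratio of 81.9 per UMI total (95% exact interval 21.3 to 698). Cebpe, the transcription factor of specific granule genes, rested on 18 UMIs and 2, a pooled ratio of 34.3 (8.21 to 305), but its batches were far apart, with 33.4 CPM beside 9.06 in Batch 1 and 54.0 beside 0 in Batch 2. These intervals covered counting error only. Hp, which encodes haptoglobin, changed least in the list, with 550.3 and 1103 CPM beside 221.9 and 631.5 (log2 1.22, SE 0.32, edgeR adjusted p = 0.00613). The list thus ranged from genes with 2 UMIs in all other leukocytes to genes that other leukocytes also used.

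Primary granule genes, made earlier at the promyelocyte stage, were scarce. The 7 genes of the list (Mpo, Elane, Prtn3, Ctsg, Ms4a3, Cst7 and Bpi) summed to 83.4 CPM in Batch 1 and 91.1 in Batch 2, beside 36.2 and 42.2 in other leukocytes. Only Prtn3, proteinase 3, passed the filter on low counts, with 83.4 and 37.1 CPM beside 18.1 and 19.4, and it did not pass the test (log2 1.60, SE 0.85, edgeR adjusted p = 0.322). At least 3 UMIs of the list were found in 2 of the 150 cells. Cst7 and Bpi were at 0 in both batches.

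Gelatinase granule and late granule genes were higher too. Of the 8 tested members 7 rose, with a median log2 fold change of 4.64, and Itgam (integrin alpha M) did not pass. Retnlg, a resistin-like protein of circulating neutrophils, stood at 2551 and 7151 CPM, beside 4.53 and 7.92 in other leukocytes (log2 9.95, SE 0.50, edgeR adjusted p = 1.52e-84). Mmp9, gelatinase B, held 122 UMIs in the high cells and 1 in other leukocytes, a ratio of 465 (95% exact interval 81.9 to 18504). Wfdc21, named 1100001G20Rik in the files and a small protein with a whey acidic domain, stood at 1351 and 4220 CPM, beside 58.9 and 150.4. Pglyrp1, which binds bacterial peptidoglycan, stood at 450.2 and 762.3 CPM, beside 54.3 and 18.5 (log2 4.77, SE 0.42). Anxa1, an annexin that limits inflammation, stood at 600.3 and 2486 CPM, beside 348.7 and 423.9.

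Retnlg was held by one kind of high cell. At least 1 Retnlg UMI was found in 6 of 8 and 86 of 93 neutrophil-marker cells, but in 0 of 21 and 2 of 24 monocyte-marker cells. In the remaining cells of the lung 0.849% and 2.31% carried a UMI. Retnlg was among the 10 markers that divided the cells, so this contrast describes the division. Mmp8, collagenase 2 and also a marker, was shared more widely, with UMIs in 3 of 8 and 76 of 93 neutrophil-marker cells and in 8 of 21 and 14 of 24 monocyte-marker cells.

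**Figure D3:**
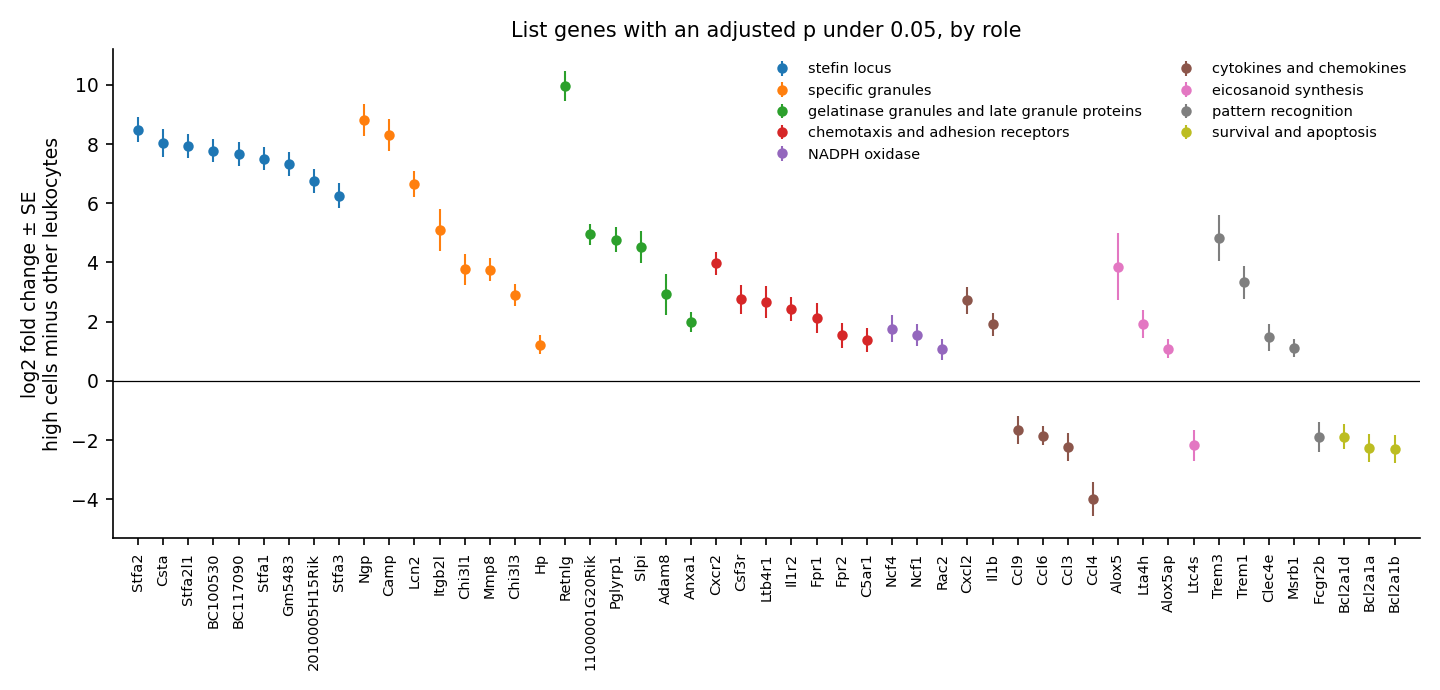
Points give the log2 fold change of S100a8/S100a9-high cells minus other leukocytes for list genes with an adjusted p under 0.05, and bars the standard error of the fit over 2 batches, with a colour for each role. Genes with 3 UMIs or fewer in either group, and genes not reported here, are left out. Stefin, specific granule and gelatinase granule genes lie above 0, while the chemokines Ccl3, Ccl4, Ccl6 and Ccl9 and the Bcl2a1 genes lie below 0.

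Receptors for chemotaxis followed. Of 13 tested members 8 rose and none fell, with a median log2 fold change of 1.54, and those described here are a part of them. Cxcr2, the receptor by which neutrophils leave the marrow and follow CXC chemokines, stood at 266.8 and 951.2 CPM, beside 40.8 and 57.2 (log2 3.97, SE 0.40, edgeR adjusted p = 7.96e-21). Csf3r, the receptor of granulocyte colony-stimulating factor, stood at 133.4 and 178.8 CPM, beside 27.2 and 30.8 (log2 2.76, SE 0.49). Fpr1 and Fpr2, receptors of formyl peptides, rose by log2 2.11 and 1.54, the call for Fpr2 being lost in 6 of 10 alternative settings. Il1r2, a decoy receptor of interleukin 1, stood at 100.1 and 853.4 CPM, beside 9.06 and 235.7. C5ar1 and Ltb4r1 also passed (lost in 7 and 4 of 10 settings), while Cxcr4, which retains neutrophils in the marrow, stood at 166.8 and 104.6 CPM beside 40.8 and 109.9 and did not (edgeR adjusted p = 0.387).

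Genes of the NADPH oxidase, which makes superoxide in the phagosome, were closer to other leukocytes. Of 7 tested, 3 rose: Ncf1 (log2 1.54, SE 0.37), Ncf4 (log2 1.76, SE 0.46) and Rac2 (log2 1.06, SE 0.35). The calls were lost in 9 of 10 alternative settings for Rac2 and in 5 of 10 for Ncf1 and for Ncf4. For Ncf1 the difference came from Batch 2, at 445.2 CPM beside 120.5, while Batch 1 stood at 166.8 beside 167.6. The membrane subunits Cybb and Cyba did not pass, with 550.3 and 330.6 CPM beside 516.3 and 291.1 for Cybb.

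Cytokine genes divided by direction. Il1b, the pro-inflammatory cytokine interleukin 1 beta, stood at 66.7 and 799.4 CPM, beside 49.8 and 227.8 (log2 1.91, SE 0.38, edgeR adjusted p = 5.69e-05). Cxcl2, a ligand of Cxcr2, stood at 16.7 and 425.0 CPM, beside 4.53 and 84.4 (log2 2.72, SE 0.47). Of the 12 tested genes these 2 rose and 5 fell. Ccl6 stood at 600.3 and 290.1 CPM, beside 1753 and 1599 (log2 -1.85, SE 0.32), and Ccl4 at 16.7 and 16.9 CPM, beside 149.4 and 412.5 (log2 -3.98, SE 0.58). Ccl3, Ccl4, Ccl6 and Ccl9 are CC chemokines of macrophages, basophils and lymphocytes. Il6 had no UMI in the high cells, beside 45.3 and 41.3 CPM, which made it at least 4.99-fold lower against a floor of 3 UMIs over the group. The calls were lost in 4 of 8 alternative settings for Il6 and in 6 of 10 for Ccl9.

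Genes of leukotriene synthesis moved in both directions. Alox5ap, the 5-lipoxygenase activating protein, stood at 1084 and 1680 CPM, beside 892.2 and 596.3 (log2 1.09, SE 0.31, edgeR adjusted p = 0.0141). Lta4h, which makes the neutrophil attractant leukotriene B4, stood at 83.4 and 145.0 CPM, beside 40.8 and 41.3 (log2 1.93, SE 0.47), and Alox5 passed as well (log2 3.85, SE 1.13). Ltc4s, which makes the cysteinyl leukotriene C4, was lower, at 16.7 and 40.5 CPM beside 117.7 and 241.0 (log2 -2.17, SE 0.53). Alox5 rested on 1 and 19 UMIs in the high cells, beside 1 and 5 in other leukocytes. Of the 6 tested genes 3 rose and 1 fell. The calls were lost in 6 of 10 settings for Alox5ap, in 5 for Ltc4s and in 4 for Lta4h.

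The other lists moved less. In pattern recognition 4 of 15 rose (Clec4e, Trem1, Trem3 and Msrb1, the last a methionine sulfoxide reductase) and Fcgr2b, the inhibitory Fc receptor, fell, with the calls lost in 7 of 10 settings for Clec4e, 6 for Msrb1 and 5 for Fcgr2b. Trem1, which amplifies inflammatory signals in neutrophils, stood at 33.4 and 212.5 CPM, beside 4.53 and 27.3 (log2 3.33, SE 0.56). Of 9 interferon response genes only Ifitm6, a member of the interferon-induced transmembrane family used by myeloid cells, passed, with 483.6 and 1535 CPM beside 231.0 and 45.7 (log2 3.40, SE 0.40, edgeR adjusted p = 8e-15). The survival genes Bcl2a1a, Bcl2a1b and Bcl2a1d fell by 2.26, 2.30 and 1.89 on the log2 scale, and Mcl1, on which neutrophil survival depends, did not pass (300.2 and 398.0 CPM beside 217.4 and 310.5). The 3 Bcl2a1 genes are near-identical copies, so their single values are uncertain.

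Among the tested transcription factors Cebpe rose, and Runx1, a factor of blood cell formation, was among those that fell (log2 -2.16, SE 0.61, edgeR adjusted p = 0.014). The call for Runx1 was lost in 7 of 10 settings. Of the glycolysis list 1 of 11 passed (Pkm, log2 1.03, edgeR adjusted p = 0.0498), and of the actin list 1 of 14 (Lcp1, log2 1.20, SE 0.33), each lost in 6 of 10 settings. The S100 genes outside the rule included S100a6 and S100a11, which rose by log2 1.00 and 1.15, calls lost in 5 and 3 of 10 settings. In the neutrophil-marker cells S100a6 stood at 697.8 and 1486 CPM, beside 1408 and 586.6 in other leukocytes. Top2a, a gene of dividing cells, was the only member of 10 in the cell cycle list to pass, and its batches went opposite ways, with 400.2 CPM beside 27.2 in Batch 1 and 131.5 beside 181.2 in Batch 2. At least 3 cell cycle UMIs were found in 6 of 21 and 5 of 24 monocyte-marker cells, and in 0 of 8 and 10 of 93 neutrophil-marker cells.

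Over all tested genes, list members included, the largest fitted rises at 100 CPM or more in the high cells were those of Gm5689, Retnlg, the stefin genes Gm5416, Gm4758 and Stfa2, Gm15845, Mmp9, Ngp, Camp and Asprv1. Gm5689, annotated as a processed pseudogene, held no UMI in other leukocytes and stood at 133.4 and 104.6 CPM, at least 49.5-fold higher. Asprv1, a retroviral-like protease, stood at 50.0 and 384.5 CPM, beside 0 and 1.76. By the fitted value the 10 genes named for their fall were all at 0 UMIs in the high cells, where only a lower bound exists, so they have no order among themselves or against genes with a few UMIs such as Pf4. They were Mcpt8 (a basophil protease, at least 39.5-fold lower), Mrc1 (the macrophage mannose receptor, at least 36.8-fold), Gzma (granzyme A, at least 28.1-fold), Ccl5, Ppbp, H2-Aa, Cx3cr1, Ms4a7, Gp9 and Alox12 (at least 7.26-fold). They mark basophils, macrophages, natural killer cells, platelets and antigen-presenting cells, which the group of other leukocytes held together.

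Leukocytes with C1q, that is with at least 3 C1q UMIs, numbered 31 and 52, and those without numbered 89 and 328. Against the first, 314 of 4942 tested genes passed (6.35%), of which 187 were higher (3.78%) and 127 lower (2.57%), and without the batch block 43 passed. Against the second, 155 passed (3.14%), of which 100 were higher (2.02%) and 55 lower (1.11%), and without the block 11 passed. All 11 stefin genes passed in both comparisons, a count partly fixed by the filter on low counts. Apoe, a lipid carrier of macrophages, fell by 4.26 on the log2 scale (SE 0.33) against the cells with C1q and did not pass against those without (log2 -1.05, SE 0.30, edgeR adjusted p = 0.063). Ly6c2, a marker of classical monocytes, was higher against both, by log2 3.88 (SE 0.55) and 2.14 (SE 0.41). Both comparisons used the same high cells. The C1q comparison used genes that the rule also used to separate them.

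The monocyte-marker cells carried the rest of the signal. Ly6c2 stood at 1531 and 692.8 CPM in them, at 0 and 354.4 in the neutrophil-marker cells and at 244.6 and 91.5 in other leukocytes. Lyz2, the lysozyme of monocytes and macrophages, was found in 21 of 21 and 23 of 24 monocyte-marker cells, beside 4 of 8 and 60 of 93 neutrophil-marker cells. Its median level was 100.6 and 49.9 UMIs per 10000 in the first, and 1.28 and 8.41 in the second. Lcn2 was shared, with 349.1 and 304.1 CPM in the monocyte-marker cells and 407.0 and 4338 in the neutrophil-marker cells. Chi3l3, a chitinase-like protein, had no UMI in the 8 neutrophil-marker cells of Batch 1 and 483.4 CPM in the monocyte-marker cells of that batch. Il1r2 stood at 895.5 CPM in the monocyte-marker cells of Batch 2 and 819.8 in the neutrophil-marker cells. Ltf, Camp, Ngp, Mmp9 and Cd177 had no UMI in the 45 monocyte-marker cells. Ly6c2, Lcn2, Ltf, Camp, Ngp and Mmp9 were among the markers that made the division, so their contrast is fixed by it, while Lyz2, Chi3l3, Il1r2 and Cd177 were not.

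Within the neutrophil-marker cells of Batch 2, specific granule mRNA and receptor or cytokine mRNA were held by sets of cells that overlapped in part. At least 3 UMIs of Ltf, Camp and Ngp were found in 47 of 93 cells and at least 3 UMIs of Cxcr2 and Il1b in 55. Of these, 20 cells held both, 27 only the first, 35 only the second, and 11 neither. After each cell was thinned to 600 UMIs, at least 1 UMI of the first set was left in 46 cells, of the second in 52 and of both in 17. The median depth was 2656 UMIs in the 27 cells, 3058 in the 20, 1575 in the 35 and 1410 in the 11. In Batch 1, 1 of the 8 neutrophil-marker cells held 3 UMIs of the first set. These are cells of 1 mouse and sets chosen after their values were seen, so no test was made of how far the sets overlap.

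**Figure D4:**
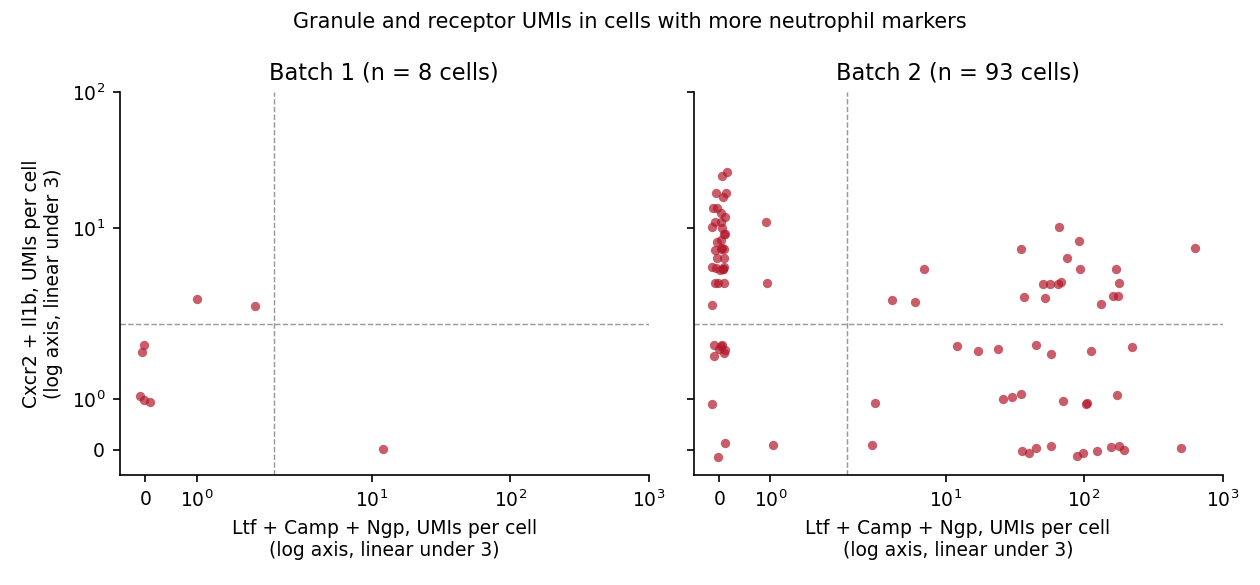
Each point is a neutrophil-marker cell of Batch 1 (left, 8 cells) or Batch 2 (right, 93 cells), with its summed UMIs of Ltf, Camp and Ngp on the x axis and of Cxcr2 and Il1b on the y axis (log axes, linear under 3, points jittered), and dashed lines at the limit of 3 UMIs. In Batch 2, 27 cells lie right of the vertical line and below the horizontal line, 35 lie left and above, and 20 lie beyond both.

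The 27 cells with granule UMIs alone and the 35 with receptor or cytokine UMIs alone differed in genes that did not define them. Chi3l3 stood at 1989 CPM in the granule cells and 127.0 in the receptor cells, Lcn2 at 5458 and 1079 CPM, and Ifitm6 at 2475 and 285.7 CPM. Cybb, the catalytic oxidase subunit, stood at 361.6 and 31.7 CPM, and Lyz2 at 2113 and 333.3 CPM. All of these were at least as high in the 20 cells with both sets as in the receptor cells, at 1436, 6688, 2783, 538.6 and 3067 CPM. In the opposite direction, Csf3r stood at 11.3 CPM in the granule cells (1 of 27 cells) and 539.6 in the receptor cells (20 of 35). Il1r2 stood at 237.3 and 2095 CPM, and Cxcl2 at 0 and 1809 CPM. Retnlg (5661 and 11490 CPM) and Mmp8 (1198 and 2079 CPM) were high in both. Csf3r, Retnlg, Mmp8 and Lcn2 were also among the markers that divided the cells, and the difference in depth was not set aside in these sums.

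The stefin locus took a median of 3460 UMIs per 10000 in the granule cells, 3753 in the cells with both, 1730 in the receptor cells and 1412 in the cells with neither. S100a8 and S100a9 took 1329, 1265, 716.6 and 543.9 per 10000 in the same 4 sets of cells, so both measures were higher in the sets with granule UMIs. Cell cycle UMIs (at least 3) were found in 5 of 27 granule cells, 3 of 20 with both, 1 of 35 receptor cells and 1 of 11 with neither.

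The high cells of Batch 2 expressed fewer genes than other leukocytes at equal depth. After thinning to 600 UMIs, which removed no cell, their median was 307 genes beside 422, and 276 in the neutrophil-marker cells beside 408.5 in the monocyte-marker cells. In Batch 1 the medians were 414 and 421.5. Without thinning they were 736 beside 1026 in Batch 2 and 790 beside 783.5 in Batch 1. The list of 14 S100 proteins and stefins alone took 27.0% of all UMIs of the high cells in Batch 2 and 7.81% in Batch 1. Its part in the lower gene number was not tested. The median mitochondrial share was 4.62% in Batch 2 and 1.09% in Batch 1. The batches differed in mouse and library together, so the batch and the mouse cannot be told apart.

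Marker genes of other lung cells were found in part of the high cells. At least 3 UMIs of fibroblast, epithelial (Sftpc left aside) or endothelial markers were carried by 8 of 31 cells in Batch 1 and 17 of 119 in Batch 2, beside 14 of 120 and 34 of 380 other leukocytes. Col1a2, a collagen gene of fibroblasts, reached 2 UMIs in 3 and 6 high cells. In Batch 1, 5 of the 8 neutrophil-marker cells held at least 3 fibroblast UMIs, beside 1 of the 21 monocyte-marker cells. Of 7 fibroblast markers 4 were higher than in other leukocytes (Col1a2, log2 1.61, SE 0.36, and Col1a1, Tcf21 and Mfap4), and of 6 endothelial markers 3 (Cdh5, Cldn5 and Egfl7). Col1a2 stood at 416.9 and 121.4 CPM, beside 86.1 and 68.6. With such cells left out of both groups none of these 7 genes passed the edgeR test, at log2 0.58 for Col1a2, 0.61 for Col1a1, 0.34 for Tcf21, 0.85 for Mfap4, 0.57 for Cldn5, 1.22 for Cdh5 and -0.11 for Egfl7, and over all genes 286 passed, 165 higher and 121 lower. The cells were removed by UMIs of the lists that hold these 7 genes, so the loss of their calls is partly fixed by the removal. With such cells left out of the high cells alone, which by construction lowers these genes on that side, 6 of the 7 turned negative, Cdh5 stayed at 0.82, and 341 genes passed over all. No doublets were called or removed.

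The cells with such UMIs had less of the neutrophil genes. In Batch 2 the 14 neutrophil-marker cells with them held a median of 768.0 stefin UMIs per 10000, 342.5 S100a8 and S100a9 UMIs per 10000 and 1081 genes. The 79 without them held 3107, 1053 and 644. In Batch 1 the 5 cells with them held 629.4 stefin UMIs per 10000 and 1089 genes, and the 3 without held 2747 and 624. Retnlg was found in 12 of the 14 and 74 of the 79. Sftpc, the surfactant protein of alveolar type 2 cells, was left aside because at least 1 UMI was found in 84.4% of the remaining cells and 88.2% of the high cells of Batch 2.

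**Figure D5:**
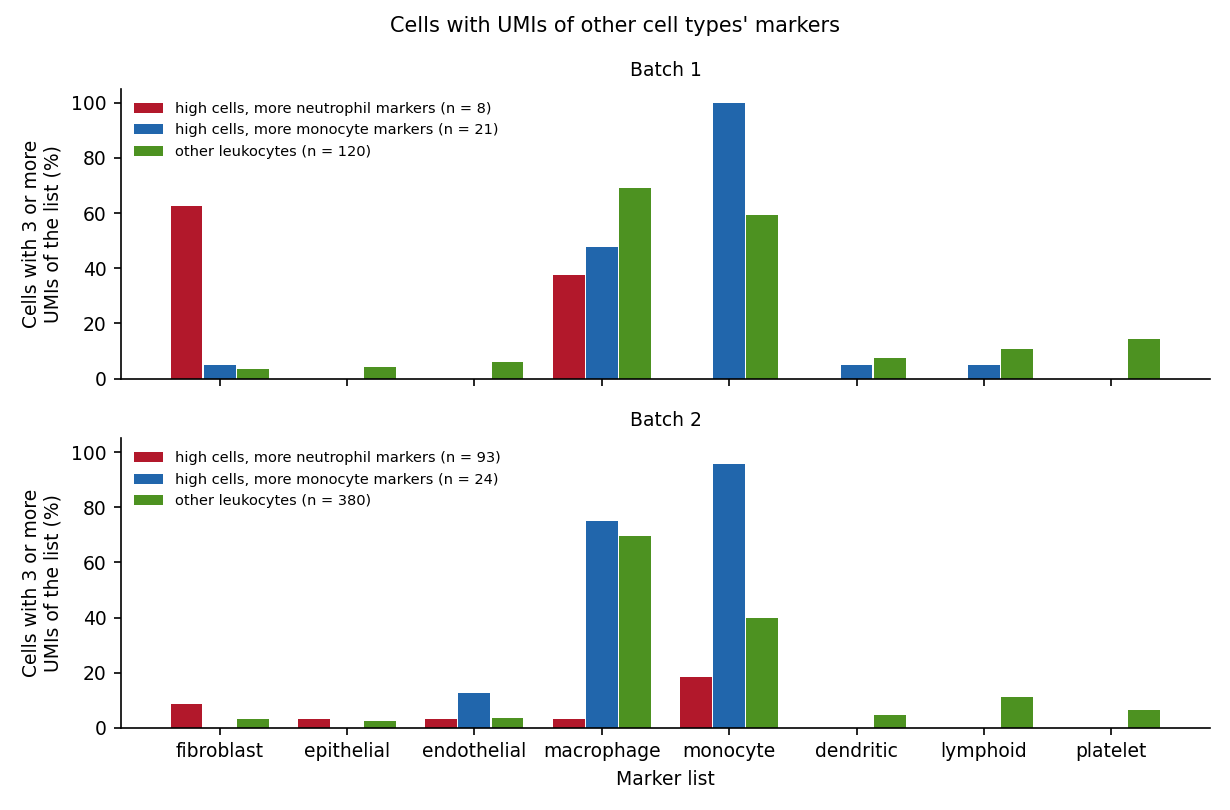
Bars give the percentage of cells that held at least 3 UMIs of each marker list in Batch 1 (top) and Batch 2 (bottom), for neutrophil-marker cells (red), monocyte-marker cells (blue) and other leukocytes (green). Fibroblast UMIs were found in 62.5% of the 8 neutrophil-marker cells of Batch 1 and 8.60% of the 93 of Batch 2, and macrophage UMIs in 18 of the 24 monocyte-marker cells of Batch 2.

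Of the other blood lineages, no high cell held 3 UMIs of the basophil and mast cell or the platelet list, and 1 of 150 held 3 lymphoid UMIs. The platelet genes Ppbp and Gp9 and the dendritic gene H2-Aa were at 0, while Pf4, a platelet and macrophage chemokine, stood at 0 and 13.5 CPM beside 3433 and 866.3. At least 3 macrophage UMIs were found in 13 of 31 and 23 of 119 high cells, beside 83 of 120 and 265 of 380 other leukocytes. Erythroid genes were high in Batch 1, at 35502 CPM in the high cells with at least 3 UMIs in 31 of 31, and at 7039 CPM in Batch 2. Each erythroid gene was lower in the high cells than in the remaining cells of either batch, such as Hba-a1 at 10589 and 1656 CPM beside 18560 and 3829. Of the 5 erythroid genes none passed the edgeR test against other leukocytes, with a median log2 fold change of 0.01. Of the 5 monocyte markers, Ly6c2 alone passed, while Ccr2, F13a1, Ms4a6c and Plac8 did not.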

How the data were processed

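The lungs were profiled by Drop-seq, and per the labels and the study's methods the reads were aligned to mm10 with Bowtie2 2.2.7, with 1 alignment reported per read, and UMIs on exons were counted per gene and barcode. The authors deposited these UMI counts as 1 table for each batch, not normalised, with no cell annotation used here. No column of another sample was present. Whether counting used the strand is not given in the sources used here.

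The members, the gene lists and the comparisons were chosen with earlier results of these data known, and the division by markers and the division by granule and receptor UMIs were chosen after the values were seen. For each batch the UMIs of the high cells, of other leukocytes and of the remaining cells were added up, and these sums were fitted with edgeR 4.0.16 in R 4.3.3 (TMM scaling, filterByExpr, quasi-likelihood test, batch as block, Benjamini-Hochberg adjustment over all tested genes). The 10 genes of the rule and mitochondrial genes were left out of the test. Sums of the same batch came from the same mouse, which gives the pairing, and their deviations correlated at 0.111 (high cells and other leukocytes), 0.272 and 0.345. CPM values are UMIs per 1000000 of the group's sum before TMM scaling. Depth was 59969 and 296474 UMIs in the high cells and 220813 and 1136979 in other leukocytes. DESeq2 1.42.0 was an alternative. The within-batch log2 values used a pseudocount of 10 CPM.

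Named genes were list members with values, the 10 largest changes in each direction with an adjusted p under 0.05 whose batches went the same way and whose larger group mean reached 100 CPM, and the 15 highest levels. Where a group held no UMI, a fold was set against 3 UMIs over the group. The files use the older symbols Chi3l3, Chi3l1 and 1100001G20Rik. Some list members are counted with their lists but not reported here by name. No doublet caller was run. The fit was tested on simulated data for the comparison with other leukocytes, where 8667 genes were tested and 2 of 59 genes changed by 1 on the log2 scale, 27 of 59 changed by 2 and 37 of 62 changed by 3 were called, with 1 wrong call among 67. The simulated sums shared a single pooled profile and a single dispersion of 0.053, with no mouse or batch effect. They do not measure the wrong calls in the real comparison. Thinning, counting and exact binomial intervals used Python 3.11.15, numpy 2.4.6, scipy 1.17.1 and pandas 2.3.3.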

Additional observations from a re-analysis of the deposited data

Results flagged for a closer look

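In Batch 2, 13 of the 1940 cells above the mitochondrial limit met the other conditions of the rule, a share of 0.670% (exact 95% interval 0.357 to 1.14%), above the 0.155% that a count of 0 allows. These cells were outside the comparisons. Their median mitochondrial share was 11.8%, and pooled over these cells the stefin locus held 641.2 UMIs per 10000, which is not a median per cell. More neutrophil marker UMIs were found in 6 of them and more monocyte marker UMIs in 7, while Retnlg was found in 6 and at least 3 stefin UMIs in 9.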

How the results depend on the processing

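The number of high cells was 150 and ranged from 98 (mitochondrial limit of 5%) to 163 (no mitochondrial limit, or at least 5 UMIs of the pair). Their share of leukocytes was 23.1% and ranged from 18.1% with no mitochondrial limit to 29.5% at a limit of 5%, where Batch 2 rose from 23.8% to 36.8%. The 450 genes called against other leukocytes became 24 without the replicate block, 148 with DESeq2, 107 after thinning to 600 UMIs, 250 with leukocytes of at least 3 UMIs, 111 with only both groups compared in the fit, and, chosen after seeing the data, 286 without cells of either group that carried fibroblast, epithelial or endothelial UMIs. The block was the difference that moved most calls, and 20 of the 100 named or listed called genes passed without it. The calls became 43 without the replicate block against leukocytes with C1q, and 11 without it and 244 with no gene filter against those without C1q. The median of all tested genes was -0.21 with TMM and -0.09 with DESeq2. A call count within 1 batch could not be computed, since no residual degrees of freedom remain. Within single batches (log2), Itgb2l stood at -1.49 in Batch 1 and 3.87 in Batch 2, Ncf1 at -0.0066 and 1.80, and Top2a at 3.46 and -0.43. Col1a2 turned to -1.15 without high cells of at least 2 Col1a2 UMIs. Without the high cells with other-lineage UMIs, which by construction lowers these genes, Col1a2 was -1.01, Col1a1 -0.64, Tcf21 -1.17, Mfap4 -0.76, Cldn5 -0.94 and Egfl7 -1.41. Egfl7 was -0.11 without such cells in both groups, where Krt8 turned to 1.70, and Krt8 was 1.19 with leukocytes of at least 3 UMIs. None of these reversed values had an adjusted p under 0.05 where a test was made. Of the 100 genes, 19 were called in every alternative that could be fitted for them. The cause of these shifts was not tested. The simulated comparison, which held no mouse or batch effect, recovered 3.39% of genes changed by 1 and 59.7% of those changed by 3 on the log2 scale. Smaller differences were thus mostly not detectable even there.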

Other observations

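Some genes outside the main account also varied among the neutrophil-marker cells of Batch 2. Osm, a cytokine of the interleukin 6 family, stood at 146.9 CPM in the 27 cells with granule UMIs alone and 444.4 in the 35 with receptor or cytokine UMIs alone, while Ltb4r1, the leukotriene B4 receptor, stood at 293.8 and 47.6 CPM and Lta4h at 226.0 and 47.6. Ccl6 had no UMI in the 47 cells with granule UMIs and was found in 13 of the 35. These are values from 1 mouse, with no test.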
